A study of Homo sapiens with 12 samples.

Results

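The 6 genes described here, CDKN2A, CDKN2B, MTAP, KLHL9, HACD4 and FOCAD, lie in band 9p21 on the short arm of chromosome 9 and were taken by gene symbol from a table of 36041 genes. All 6 symbols were found, each in 1 row. The set was chosen by position and on its measured counts in the 2 lines, with CDKN2A and CDKN2B at 0 in MOLM13, so the differences of its members between the lines are given as a description without a test. The libraries came from MOLM13 and MV411 (also written MV4-11), human acute myeloid leukaemia cell lines of monocytic character. Both are FLT3-ITD lines, in which a duplicated stretch leaves the receptor FLT3 active without its ligand. Each received either DMSO, the solvent, or 10 nM of the kinase inhibitor SGI-7079 for 24 h, which gave 4 groups of 3 libraries. Each genetic background is thus represented by 1 cell line, and the labels do not say whether the replicates came from separate cultures. The p-values below therefore measure only the spread between these libraries, which may be technical.

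The band is known for the tumour suppressors at its centre. CDKN2A makes p16INK4a, an inhibitor of the kinases CDK4 and CDK6 that keeps the RB protein active, and from a more distant first exon in another reading frame p14ARF, which binds MDM2 and so stabilises p53. CDKN2B makes p15INK4b, a relative of p16INK4a with the same kinase targets. The locus is often deleted in leukaemia and is silenced by polycomb complexes in many dividing cells, and MTAP is frequently lost together with CDKN2A. MTAP encodes the enzyme that recycles methylthioadenosine, a by-product of polyamine synthesis and an inhibitor of the arginine methyltransferase PRMT5, towards methionine. KLHL9 is a substrate adaptor of the CUL3 ubiquitin ligase that acts on the mitotic kinase Aurora B, HACD4 belongs to the dehydratases that take part in making very-long-chain fatty acids, and FOCAD encodes focadhesin, which has been linked to the SKI complex of RNA decay.

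The promoters are shown because CDKN2A has a pair of separate starts but 1 row of counts, and because the neighbouring MTAP promoter served a gene that was read in both lines. RefSeq windows on GRCh38.p14 reach from 250 bases before to 50 after a start, and 7 windows matched the 6 genes. They are written 5′ to 3′ on the strand of the gene. Capitals mark matches on either strand to 4 motifs. The GC box was searched as GGGCGG. The letters of the second motif, named for them, were CCAAT. An E2F core was searched as GCGGGAA in the same windows. The core bound by ETS factors was searched as CCGGAA. No matches of different motifs overlapped. The proximal CDKN2A window is at chr9:21974808-21975107 (minus strand), the distal one at chr9:21995275-21995574 (minus strand), the CDKN2B window at chr9:22009256-22009555 (minus strand) and the MTAP window at chr9:21802386-21802685 (plus strand). The distal window lies beyond the CDKN2A row of counts, which ends at 21994873. That row end is the CDKN2A start from which distances are given below.
CDKN2A proximal start: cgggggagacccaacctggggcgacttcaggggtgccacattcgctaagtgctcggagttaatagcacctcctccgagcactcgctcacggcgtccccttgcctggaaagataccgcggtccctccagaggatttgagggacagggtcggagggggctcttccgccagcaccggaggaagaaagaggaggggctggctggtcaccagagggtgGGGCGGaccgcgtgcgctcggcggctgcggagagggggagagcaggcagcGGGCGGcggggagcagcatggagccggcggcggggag
CDKN2A distal start: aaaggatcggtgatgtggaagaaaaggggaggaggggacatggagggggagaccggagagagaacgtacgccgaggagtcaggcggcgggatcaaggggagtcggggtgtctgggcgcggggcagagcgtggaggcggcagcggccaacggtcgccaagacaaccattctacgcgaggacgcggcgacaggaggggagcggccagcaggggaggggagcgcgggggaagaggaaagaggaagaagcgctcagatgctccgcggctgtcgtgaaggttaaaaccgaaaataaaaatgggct
CDKN2B start: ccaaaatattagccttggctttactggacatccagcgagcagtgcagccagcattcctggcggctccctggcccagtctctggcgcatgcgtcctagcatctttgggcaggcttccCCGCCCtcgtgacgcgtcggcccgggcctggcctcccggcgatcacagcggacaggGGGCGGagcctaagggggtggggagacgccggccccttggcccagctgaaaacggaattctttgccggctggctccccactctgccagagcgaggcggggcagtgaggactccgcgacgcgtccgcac
MTAP start: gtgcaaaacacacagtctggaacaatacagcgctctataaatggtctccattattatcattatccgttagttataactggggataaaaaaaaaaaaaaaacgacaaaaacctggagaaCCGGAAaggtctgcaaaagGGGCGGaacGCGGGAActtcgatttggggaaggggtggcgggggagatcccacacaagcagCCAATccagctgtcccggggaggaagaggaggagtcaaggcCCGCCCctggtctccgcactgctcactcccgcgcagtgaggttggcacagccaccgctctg

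The GC box was found in 5 of the 7 windows, against 45.0% of 35116 RefSeq promoters of the same length. The distal CDKN2A window held none of the 4 motifs, while the proximal CDKN2A and the CDKN2B windows each held 2 GC boxes and no other match. Among the members the E2F core was found in MTAP alone, which 6.55% of the promoters held, and it shared the ETS core with KLHL9 (17.2% of promoters). CCAAT was in the MTAP and FOCAD windows (34.6% of promoters). GC content was 69.0% in the proximal CDKN2A window, 63.3% in the distal one, 67.3% in CDKN2B and 53% in MTAP, beside a median of 58.7% over the promoters searched. These matches are letters in a window and were not tied to binding by any measurement here.

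Total counts ranged from 52352252 to 61862017 per library, and 21438 genes passed the filter on low counts, among them the 6 members. CDKN2A and CDKN2B passed it through MV411 alone. The myeloid markers CD33, LYZ and FLT3 were read in every library at 75.8 CPM or more (counts scaled to the library total with TMM factors), and CSF1R, MPO and ITGAM at 3.39 CPM or more. Of 8 markers of T, B, erythroid and fibroblast cells 4 were in the table, and their summed level was 0.184 to 2.24 CPM in every library. Because whole cultures were lysed, fewer cells reading a gene and less RNA per cell cannot be told apart.

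CDKN2A was the most deeply read member in MV411 and had no count at all in MOLM13. The counts were 0 in all 6 MOLM13 libraries, 4780, 5173 and 5457 in MV411 DMSO replicates 1 to 3, and 4299, 3928 and 3591 with SGI-7079. In CPM this was 86.6 ± 3.02 (SD, n = 3) in MV411 DMSO. Every MV411 library thus stood far above every MOLM13 library. Against the limit of 3 counts that a library at 0 allows (0.0553 CPM at most, counting error only), CDKN2A was at least 1570-fold higher in MV411 in DMSO and at least 1170-fold higher in SGI-7079.

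CDKN2B showed the same split at a far lower level. Its counts were 0 in the 6 MOLM13 libraries, 120, 86 and 80 in MV411 DMSO and 174, 149 and 144 in MV411 SGI-7079. The groups of the lines did not overlap, and CDKN2B was at least 29.2-fold higher in MV411 in DMSO and at least 46.1-fold in SGI-7079. Of the 21438 genes tested, 1.40% had no count in any MOLM13 library and 0.410% had none in any MV411 library, and 12.9% were called higher in MV411 DMSO and 9.57% higher in MOLM13 DMSO (edgeR, adjusted p under 0.05 and more than 1 on the log2 scale). Among the 301 genes without a MOLM13 count, CDKN2A ranked 3 and CDKN2B 76 by their level in MV411 DMSO. The median of the 301 was 0.414 CPM, and 20 of them reached 10 CPM.

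Per length, the CDKN2A row stood well above the CDKN2B row in MV411. On the deposited FPKM scale (fragments scaled to gene length and library total), the ratio of CDKN2A to CDKN2B was 41.8, 62.3 and 70.7 in the DMSO libraries and 25.6, 27.3 and 25.9 in the treated ones. The DMSO libraries all had the higher ratio. The length behind the FPKM, as the counts imply, averaged 4188 bases for CDKN2A and 4353 for CDKN2B over the MV411 libraries. That it was fixed across libraries was checked for the other members only. With a single value per row, the p16INK4a and p14ARF transcripts of CDKN2A cannot be told apart.

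The other 4 members were read in every library of both lines. MTAP counts were 2299, 1986 and 2118 in MOLM13 DMSO and 3747, 3765 and 3881 in MV411 DMSO, or 38.5 ± 3.39 and 64.1 ± 1.35 CPM (SD, n = 3), a 1.66-fold higher level in MV411 without overlap. KLHL9 counts were 1446, 1365 and 1521 in MOLM13 DMSO and 2671, 3032 and 2575 in MV411 DMSO, again without overlap, and the level was 1.79-fold higher in MV411. FOCAD was 1.35-fold higher in MV411 DMSO (53.4 ± 1.95 against 39.4 ± 0.665 CPM), also without overlap. The share of all genes without overlap between lines or between treatments was not counted. Lack of overlap therefore describes these libraries and is not shown to be unusual. HACD4 was at 14 ± 1.01 CPM in MOLM13 and 13.7 ± 2.22 in MV411 in DMSO, with overlapping libraries and a ratio of 0.98. In SGI-7079 the ratios of MV411 to MOLM13 were 1.40 for MTAP, 1.86 for KLHL9, 1.09 for HACD4 and 0.867 for FOCAD, so that FOCAD was the lower in MV411 once treated.

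**Figure D1:**
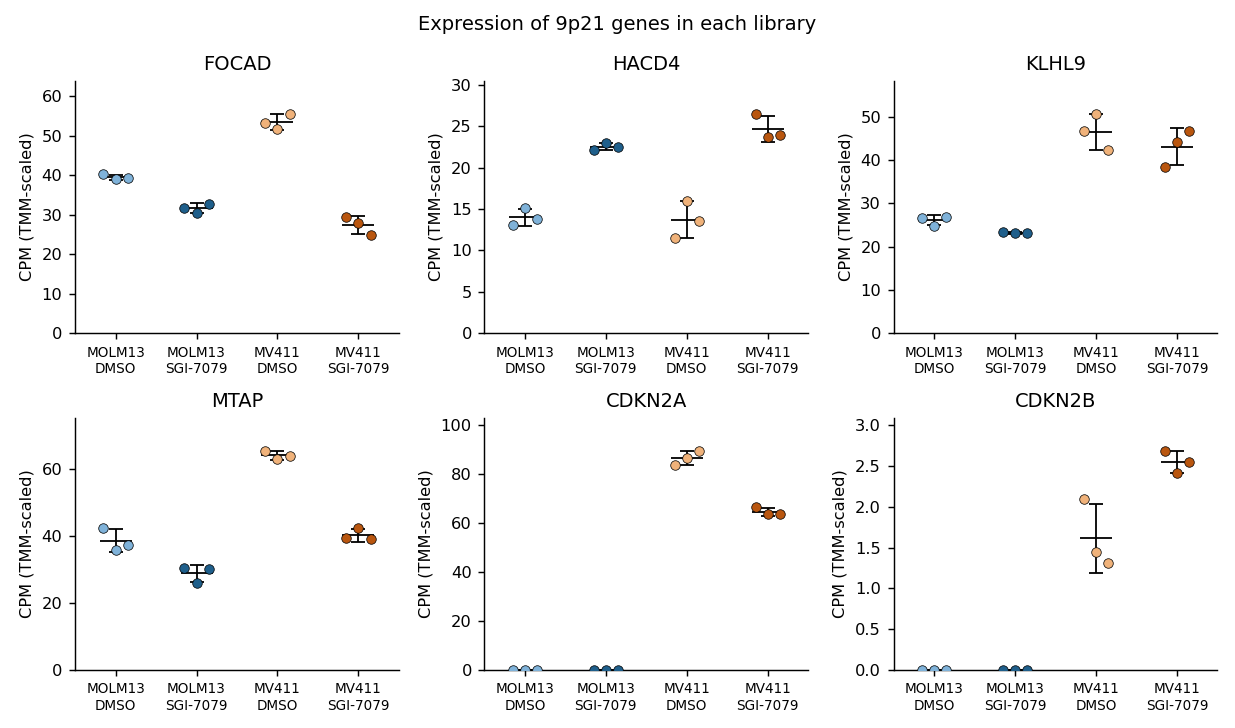
CPM of each member (y axis, TMM-scaled, linear from 0) in the 4 groups (x axis); points are libraries, the dash is the mean and the bars are the SD of 3 libraries. CDKN2A and CDKN2B lie at 0 in all 6 MOLM13 libraries, HACD4 is higher with SGI-7079 in both lines, and FOCAD reaches 53.4 CPM in MV411 DMSO and 27.4 CPM in MV411 SGI-7079.

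Within a group, levels per length gave an order of the members. In MOLM13 DMSO the mean FPKM was 3.95 for KLHL9, 3.52 for FOCAD, 2.31 for MTAP and 1.33 for HACD4, with no overlap between neighbours in that order, and CDKN2A and CDKN2B were at 0. With SGI-7079 the MOLM13 order changed in its lower part, since HACD4 (2.28 FPKM) lay above MTAP (1.83 FPKM) without overlap. In MV411 DMSO the order was CDKN2A (20.6 FPKM), KLHL9 (7.5), FOCAD (5.05), MTAP (4.07), HACD4 (1.38) and CDKN2B (0.369), each clear of the next. In MV411 SGI-7079 CDKN2A (16.5 FPKM) and KLHL9 (7.5) still led and CDKN2B (0.629) was last, whereas FOCAD (2.79), MTAP (2.76) and HACD4 (2.68) overlapped and had no order beyond their spread.

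Read by position, CDKN2A and CDKN2B lay without a MOLM13 count between rows that were read in MOLM13, MTAP on the telomere side and the antisense gene CDKN2B-AS1 on the other. In the coordinates of the hg38 table, MTAP runs from 21802636 to 21937651 on the plus strand and had 11355 counts over the 6 MOLM13 libraries against 18768 in MV411. CDKN2A runs from 21967752 to 21994873 on the minus strand (0 against 27228 counts) and CDKN2B from 22002903 to 22009305 on the minus strand (0 against 753). CDKN2B-AS1, the long non-coding RNA also called ANRIL, runs from 21994139 to 22128103 on the plus strand, past CDKN2B, and was read in all 6 MOLM13 libraries with 536 counts against 2890 in MV411.

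Smaller rows mark the edges more closely, and these were chosen after their values were seen. ERVFRD-3, which lies inside MTAP from 21929457 to 21931073, had 1 count in MOLM13 and 144 in MV411. CDKN2A-AS1, which begins at 21966929, had 0 against 58, the clone gene ENSG00000266446 had 0 against 19, and the pseudogene UBA52P6, which ends at 22012536, had 0 against 7, at 1 or 2 counts per MV411 library and so under the limit of 3. The rows without a MOLM13 count from CDKN2A-AS1 to UBA52P6 thus span 45.6 kb. On the telomere side ENSG00000279670, inside MTAP from 21892188 to 21893857, had 40 counts in MOLM13 and 64 in MV411, and TUBB8P1, nearer the MTAP start, had 65 and 83. On the other side the rows within CDKN2B-AS1 beyond UBA52P6 were sparse in both lines, with 6 and 6 counts for ENSG00000274055 and 4 and 5 for ENSG00000277653, at 1 count or fewer per library.

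The exons of the flanking genes extend well away from these rows in GENCODE 44. Of the exon bases of MTAP, 50.0% (7265 of 14527) come before the start of ERVFRD-3, and of those of CDKN2B-AS1, 93.8% (19147 of 20420) lie beyond the end of UBA52P6. Where within MTAP or CDKN2B-AS1 the MOLM13 reads fell cannot be told from 1 count per gene. Whether the locus is deleted or silent in MOLM13 was not tested, since RNA counts alone were used. The libraries mark strand, but the sources used here do not say whether the counting used it, so the values of CDKN2B, CDKN2A and CDKN2B-AS1 in MV411, where their spans overlap on opposite strands, are uncertain to that extent.

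**Figure D2:**
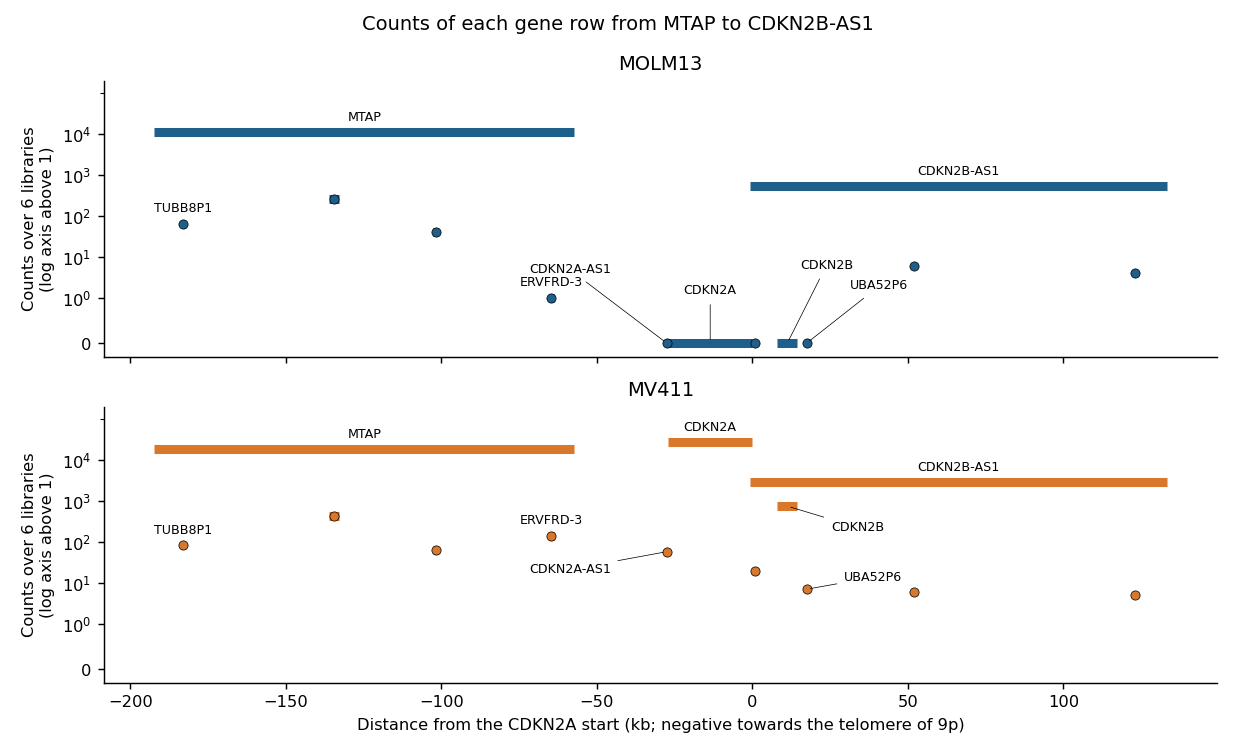
Counts summed over the 6 libraries of each line (y axis, linear up to 1 and logarithmic above) against distance from the CDKN2A start in kb (x axis); bars span a gene, points mark genes under 4 kb, and unlabelled points are clone genes known by identifier. In MOLM13 the rows from CDKN2A-AS1 to UBA52P6 lie at 0 while MTAP has 11355 and CDKN2B-AS1 536 counts, and in MV411 all of them are above 0.

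Within 10 Mb of the CDKN2A start the table held 82 genes, of which 45 passed the filter and 35 reached 1 CPM in a group, the 6 members included. CDKN2A and CDKN2B were the 2 of the 35 without a MOLM13 count. The 29 other non-members read in both lines had a median ratio of MV411 to MOLM13 in DMSO of 1.03. The highest ratio was 8.01, in TUSC1, and the lowest 0.03, in TYRP1, whose 7 MV411 counts all came from 1 library, followed by 0.123 in MLLT3. Of these, 7 were at least 2-fold higher in MV411 and 3 at 0.5 or below. MLLT3, a fusion partner of KMT2A in acute myeloid leukaemia and the nearest of them on the telomere side of FOCAD, was at 14.4 CPM in MOLM13 DMSO and 1.76 in MV411 DMSO. A single count per gene cannot tell reads of a fusion transcript from those of intact MLLT3, so its value may not reflect its own promoter. Further out on that side the ribosomal protein gene RPS6, the most abundant gene of the window, was at 2150 and 1460 CPM. On the centromere side TUSC1 was at 2.03 and 16.3 CPM. The neighbours thus included genes at a higher level in either line. Over the whole window 16 genes, CDKN2A and CDKN2B among them, had counts in MV411 and none in MOLM13, and 11 of these had more than 3 counts in at least 1 MV411 library.

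**Figure D3:**
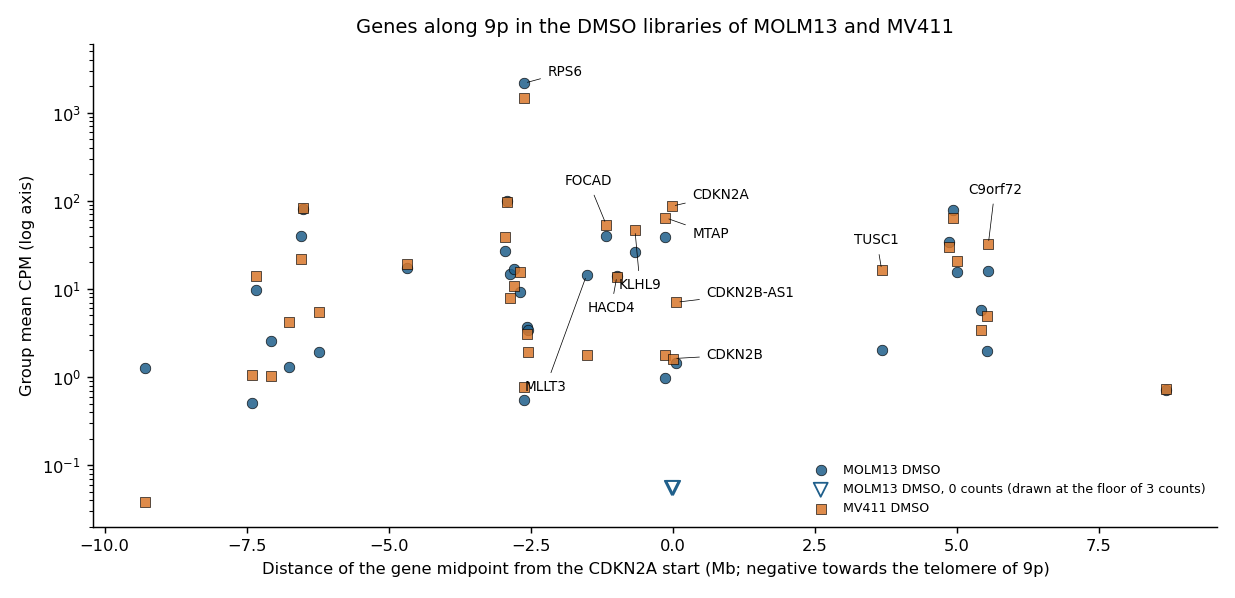
Mean CPM of the 3 DMSO libraries (y axis, logarithmic) of the 35 genes within 10 Mb that reached 1 CPM in a group, against the distance of the gene's midpoint from the CDKN2A start in Mb (x axis); circles are MOLM13, squares MV411, and open triangles are genes with 0 counts drawn at the floor of 3 counts. The open triangles are CDKN2A and CDKN2B, and the 29 other non-members read in both lines have a median ratio of 1.03.

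Under SGI-7079 HACD4 rose and MTAP and FOCAD fell in both lines, CDKN2A fell in MV411, and neither KLHL9 nor CDKN2B passed the test. In MOLM13 1 of the 4 rose and 2 fell, where 23.2% of all genes tested rose and 23.6% fell (edgeR's quasi-likelihood test with Benjamini-Hochberg adjustment, adjusted p under 0.05). In MV411 1 of the 6 rose and 3 fell, where 27.2% of all genes rose and 24.3% fell. In the reported test no member was called at a log2 fold change beyond 1. At that size 12.4% of genes were called in MOLM13 and 17.1% in MV411. FOCAD in MV411 did pass that size (-1.09 at most) without any 1 of the MOLM13 libraries, MV411 DMSO replicates 1 and 2 or MV411 SGI-7079 replicate 1. FOCAD in MV411 also passed it with all libraries but no filter on low counts, and when MV411 was fitted alone. In all these fits the median log2 fold change of all genes in MV411 was lower too, at 0.031 to 0.061 against 0.114. The shift was thus not particular to FOCAD. The median log2 fold change of all genes tested was 0.0538 in MOLM13 and 0.114 in MV411.

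Of the cell cycle inhibitors, CDKN2A went from 83.6, 86.4 and 89.6 CPM in MV411 DMSO to 66.5, 63.7 and 63.5 CPM with SGI-7079. All treated libraries lay below all DMSO libraries, and the log2 fold change was -0.42 ± 0.05 (SE, n = 3 per group; adjusted p = 8.66e-05), or 0.746 of the DMSO level. CDKN2B was at 2.1, 1.44 and 1.31 CPM in MV411 DMSO and 2.69, 2.42 and 2.55 CPM with SGI-7079. Here the treated libraries lay above the DMSO libraries, but DMSO replicate 1 was well above its fellows and the log2 fold change of 0.66 ± 0.29 did not pass (adjusted p = 0.0882). It passed when MV411 was fitted alone (0.59, adjusted p = 0.0493) and with limma on the FPKM. In MOLM13 neither gene had a count with SGI-7079, so no fold is given there.

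MTAP, the methylthioadenosine enzyme, was at 42.4, 35.9 and 37.3 CPM in MOLM13 DMSO and 30.5, 25.8 and 30.1 CPM with SGI-7079. In MV411 it went from 65.5, 62.9 and 63.8 CPM to 39.3, 42.5 and 39.0 CPM. The treated libraries lay below the DMSO libraries in both lines, with log2 fold changes of -0.42 ± 0.07 in MOLM13 (adjusted p = 0.000311) and -0.67 ± 0.07 in MV411 (adjusted p = 2.93e-06). The difference between the lines, -0.25 ± 0.10, did not pass (adjusted p = 0.115), though it did without MOLM13 DMSO replicate 1 (-0.40, adjusted p = 0.0106) or without MOLM13 SGI-7079 replicate 2 (-0.40, adjusted p = 0.0081), and adjusted p ranged from 0.0081 to 0.216 over all alternatives.

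FOCAD fell in both lines. It was at 40.2, 38.9 and 39.3 CPM in MOLM13 DMSO and 31.7, 30.3 and 32.8 CPM with SGI-7079. In MV411 it was at 53.1, 51.6 and 55.5 CPM in DMSO and 29.5, 27.8 and 24.8 CPM with SGI-7079. The groups did not overlap in either line. The log2 fold change was -0.32 ± 0.06 in MOLM13 (adjusted p = 0.000705) and -0.96 ± 0.06 in MV411 (adjusted p = 1.46e-08), and FOCAD was the 1 of 4 members whose effects differed between the lines, by -0.64 ± 0.09 (MV411 minus MOLM13, adjusted p = 0.000155), where 20.7% of all genes tested did.

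HACD4, the dehydratase gene that lies next to FOCAD on the opposite strand, moved the other way. It was at 13.1, 15.1 and 13.8 CPM in MOLM13 DMSO and 22.1, 23.0 and 22.5 CPM with SGI-7079, and at 11.5, 16 and 13.6 CPM in MV411 DMSO and 26.5, 23.7 and 23.9 CPM with SGI-7079. Treated and DMSO libraries were well apart in both lines. The log2 fold changes were 0.69 ± 0.11 (adjusted p = 1e-04) and 0.85 ± 0.11 (adjusted p = 1.15e-05), or 1.61-fold and 1.80-fold. The difference of 0.16 ± 0.15 between the lines did not pass (adjusted p = 0.534).

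KLHL9, the CUL3 adaptor, did not pass in either line. Its libraries were at 26.7, 24.7 and 26.8 CPM in MOLM13 DMSO and 23.4, 23.1 and 23.1 CPM with SGI-7079, for a log2 fold change of -0.17 ± 0.08 (adjusted p = 0.101). In MV411 they were at 46.7, 50.7 and 42.3 CPM and 38.5, 44.1 and 46.8 CPM, which overlap, for -0.11 ± 0.08 (adjusted p = 0.263). The MOLM13 groups did not overlap, and the test passed when MOLM13 was fitted alone (-0.17, adjusted p = 0.0467).

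**Figure D4:**
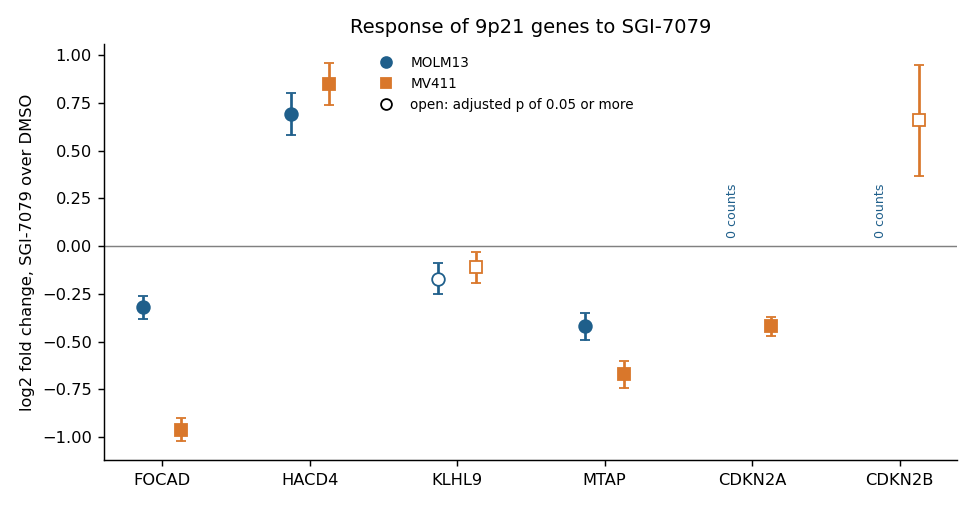
Log2 fold change of SGI-7079 over DMSO (y axis) of the 6 members in order along the chromosome (x axis), with circles for MOLM13, squares for MV411, bars of 1 SE and open symbols where adjusted p is 0.05 or more. HACD4 lies above 0 in both lines, FOCAD and MTAP lie below it, and FOCAD reaches -0.96 in MV411 against -0.32 in MOLM13.

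Around the members, genes of the same window moved in both directions under SGI-7079. Of the 37 non-members with a fold in MOLM13, 6 rose and 13 fell, with a median log2 fold change of -0.31. Of the 39 in MV411, 11 rose and 11 fell, with a median of 0.11. Over all genes tested, increases made up 23.2% and decreases 23.6% in MOLM13, with a median of 0.0538. For MV411 these shares were 27.2% and 24.3%, with a median of 0.114. The MV411 window was thus close to all genes in its shares and its median. CDKN2B-AS1, antisense to CDKN2B, did not pass in MOLM13 (0.22 ± 0.21, adjusted p = 0.425) or in MV411 (0.35 ± 0.19, adjusted p = 0.156). C9orf72 and its neighbours MOB3B and EMICERI, whose spans overlap in part, rose in both lines. C9orf72 rose by 0.39 in MOLM13 (adjusted p = 0.000761) and by 1.36 in MV411 (adjusted p = 2.64e-09), MOB3B by 0.62 and 2.40 (adjusted p = 0.00321 and 1.29e-08), and EMICERI by 1.09 and 2.42 (adjusted p = 0.000163 and 4.01e-08).

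The partners of p16INK4a and p15INK4b were taken as 18 genes of the RB pathway. In MOLM13 2 rose and 15 fell, with a median log2 fold change of -0.57, and in MV411 2 rose and 13 fell, with a median of -1.17. As background for this and the lists below, 23.2% of all genes tested rose and 23.6% fell in MOLM13 (median 0.0538). In MV411 27.2% of all genes rose and 24.3% fell (median 0.114). Counts near these shares are not particular to a list. CDK2, the kinase of cyclin E, fell by 1.08 on the log2 scale in MOLM13 (adjusted p = 5.46e-10) and by 1.93 in MV411 (adjusted p = 1.5e-12). CCND3, a D-type cyclin that p16INK4a counteracts through CDK4 and CDK6, fell by 0.93 in MOLM13 (adjusted p = 2.01e-09), and E2F1, the transcription factor held by RB, fell by 2.82 in MV411 (adjusted p = 4.56e-13). RBL2, an RB relative of resting cells, rose by 0.26 in both lines (adjusted p = 1.93e-05 and 1.6e-05). CDK6 rose by 0.21 in MOLM13 (adjusted p = 0.00161) and did not pass in MV411 (0.01, adjusted p = 0.911). CDK4, named here after its values were seen, fell by 0.55 in MOLM13 (adjusted p = 3.02e-07) and by 1.40 in MV411 (adjusted p = 1.95e-11). CDKN1B, which encodes p27, rose by 0.10 in MV411 (adjusted p = 0.0468), less than the median of all genes there (0.114). CDKN1B fell in MOLM13 (-0.25, adjusted p = 0.000201). The MV411 count that rose was 1 when any 1 of 11 libraries was left out.

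The 18 genes of the p53 pathway, downstream of p14ARF, moved in both directions. MOLM13 had 7 that rose and 5 that fell (median 0.16), and MV411 had 3 and 13 (median -0.34). MDM4, an inhibitor of p53, rose by 0.63 in MOLM13 (adjusted p = 3.86e-08) and by 0.47 in MV411 (adjusted p = 4.9e-07). The p53 target ZMAT3 rose by 0.69 and 0.54 (adjusted p = 2.24e-07 and 2.01e-06). CDKN1A, the p53 target that encodes p21 and also counted in the RB list, fell by 1.07 in MV411 (adjusted p = 5.72e-09), and SESN1 fell by 0.47 there (adjusted p = 5.28e-07). CDKN1A also fell in MOLM13 (-0.37, adjusted p = 0.000214), whereas SESN1 rose in MOLM13 (0.37, adjusted p = 5.36e-06). In MOLM13 NPM1, a nucleolar partner of p14ARF, fell by 0.37 (adjusted p = 3e-07) and SESN2, a stress-induced sestrin, by 0.56 (adjusted p = 5.15e-05).

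Of MTAP's pathway partners, taken as 14 genes of methionine salvage and the PRMT5 complex, 10 fell in each line, with medians of -0.32 in MOLM13 and -0.39 in MV411, and 1 rose in MOLM13 (0 without MOLM13 DMSO replicate 2 or without MOLM13 SGI-7079 replicate 3) and 0 in MV411. PRMT5, the methyltransferase inhibited by methylthioadenosine, fell by 0.52 in MOLM13 (adjusted p = 2.7e-08) and by 0.97 in MV411 (adjusted p = 3.18e-11). ENOPH1, a later enzyme of the salvage route, fell by 0.78 in MOLM13 (adjusted p = 3.1e-08), and MAT2A, which makes S-adenosylmethionine, fell by 0.68 in MV411 (adjusted p = 1.76e-10). MRI1, the step after MTAP, rose by 0.13 in MOLM13 (adjusted p = 0.0181).

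Of 10 genes of polyamine synthesis and breakdown, the source of methylthioadenosine, 6 fell and 2 rose in MOLM13 (median -0.29), and 5 fell and 3 rose in MV411 (median -0.26). The decreases included the synthetic enzymes. ODC1, the entry enzyme, fell by 0.87 in MOLM13 (adjusted p = 1.68e-10), AMD1 fell by 0.59 in MOLM13 (adjusted p = 7.27e-09) and by 0.93 in MV411 (adjusted p = 4.57e-11), and the spermidine synthase SRM fell by 1.21 in MV411 (adjusted p = 1.07e-10). SAT1, which acetylates polyamines for export or breakdown, rose by 0.83 in MOLM13 (adjusted p = 5.4e-06) and by 1.83 in MV411 (adjusted p = 1.16e-09), and the oxidase SMOX rose by 0.31 and 0.33 (adjusted p = 0.0067 and 0.00395). Without MV411 SGI-7079 replicate 1 the count that rose in MV411 was 1 instead of 3.

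Of 12 genes of very-long-chain fatty acid elongation 11 were tested, of which 8 fell in MOLM13 (median -0.38), 5 fell in MV411 (median -0.12) and 1 rose in each line. HACD3, a dehydratase of the same family, fell by 1.11 in MV411 (adjusted p = 3.32e-10), TECR, the reductase that follows the dehydratase, fell by 0.34 in MOLM13 (adjusted p = 2.9e-06) and 0.31 in MV411 (adjusted p = 4.91e-06), and ELOVL5 fell by 0.46 in MOLM13 (adjusted p = 5.24e-09). ELOVL2 rose by 2.36 in MOLM13 (adjusted p = 0.00281) and 2.06 in MV411 (adjusted p = 0.0154) from DMSO levels of 0.830 and 0.129 CPM, and no gene of the list rose in MV411 without MV411 DMSO replicate 1 or without MV411 SGI-7079 replicate 1.

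Among 10 genes around KLHL9 and CUL3, 5 fell and 2 rose in MOLM13 (median -0.32), and 4 fell and 1 rose in MV411 (median -0.33). CUL3, the scaffold of the ligase, fell by 0.44 in MOLM13 (adjusted p = 2.31e-07) and by 0.43 in MV411 (adjusted p = 2.29e-07). AURKB, the gene of the substrate Aurora B, fell by 1.59 (adjusted p = 1e-09) and by 2.54 (adjusted p = 7.45e-12). Of the other adaptors, KLHL12 and KLHL20 rose by 0.26 and 0.25 in MOLM13 (adjusted p = 0.0011 and 0.0151; 1 gene rose there without MOLM13 DMSO replicate 1 or without MOLM13 SGI-7079 replicate 1) and KLHL22 rose by 0.29 in MV411 (adjusted p = 0.044), while KLHL21 fell by 0.14 in MOLM13 (adjusted p = 0.0415). KLHL13, the partner of KLHL9, did not pass in MOLM13 (-0.43, adjusted p = 0.253) or MV411 (-0.23, adjusted p = 0.556), nor did KLHL12 and KLHL20 in MV411 (adjusted p = 0.13 and 0.11). KLHL13 and KLHL21 were named here after their values were seen. No gene of the list rose in MV411 when any 1 of 10 libraries was left out.

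Of 15 genes of the SKI complex and the RNA exosome, to which FOCAD has been linked, 1 rose and 12 fell in each line, with medians of -0.34 in MOLM13 and -0.64 in MV411. The exosome nuclease EXOSC10 fell by 0.61 (adjusted p = 2.97e-08) and by 0.80 (adjusted p = 1.07e-09), HBS1L, whose gene also encodes a SKI-exosome bridge, fell by 0.63 in MOLM13 (adjusted p = 1.11e-08), and EXOSC2 fell by 0.95 in MV411 (adjusted p = 1.35e-09). The 1 gene that rose was the SKI scaffold SKIC3, by 0.46 in MOLM13 (adjusted p = 5.28e-07) and 0.62 in MV411 (adjusted p = 1.56e-08).

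The 18 polycomb genes and related regulators, which act on CDKN2A and CDKN2B in many cells, were mixed, with 8 that rose and 6 that fell in MOLM13 (median 0.06) and 9 and 5 in MV411 (median 0.13). These medians were close to those of all genes tested, 0.0538 in MOLM13 and 0.114 in MV411. EZH2, the methyltransferase of dividing cells, fell by 0.92 (adjusted p = 1.44e-10) and by 0.82 (adjusted p = 1.56e-10), and CBX2 fell by 0.82 (adjusted p = 6.63e-07) and by 1.66 (adjusted p = 3.98e-10). EZH1 rose by 1.09 in MOLM13 (adjusted p = 1.81e-07), the H3K27 demethylase KDM6B by 0.51 and 0.85 (adjusted p = 4.18e-07 and 1.48e-09), and PHC3 by 0.62 in MV411 (adjusted p = 1.96e-07). CDKN2A, which these complexes silence in many cells, fell in MV411, and a link between its level and these genes was not tested. The number that fell in MV411 was 8 instead of 5 when any 1 of 7 libraries was left out, all 6 of MOLM13 among them.

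**Figure D5:**
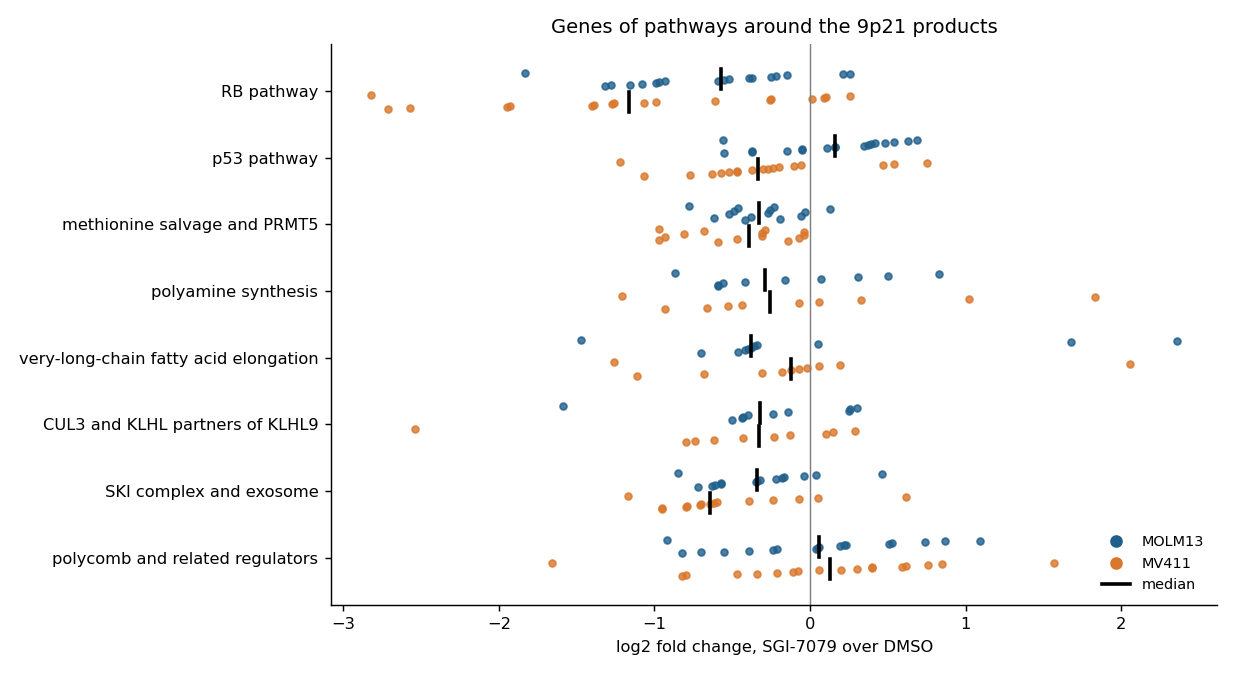
Log2 fold change of SGI-7079 over DMSO (x axis) of each tested gene of the 8 pathway lists (rows), with MOLM13 and MV411 in separate colours and the list median as a black tick. The RB list has medians of -0.57 and -1.17, the SKI and exosome list of -0.34 and -0.64, and the polycomb list of 0.06 and 0.13.

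CDKN2A and CDKN2B had the widest range over the 12 libraries, 11.35 and 6.31 on the log2 CPM scale with a prior count of 2, and the genes closest to each in profile lay on other chromosomes. Likeness was the root-mean-square difference of profiles centred on their own mean, with 0 for identical ones. For CDKN2A the closest were PROSER1 on chromosome 13 (0.17), UNC5C on chromosome 4 (0.48), NDN on chromosome 15 (0.66), ZNF254 on chromosome 19 (0.69) and EPIST on chromosome 5 (0.75). For CDKN2B they were UPK3A (0.16), HOXB6 (0.19), ENSG00000267565 (0.20), ZNF470 (0.24) and ENSG00000250658 (0.24). All 10 had 0 counts in the 6 MOLM13 libraries, as did CDKN2A and CDKN2B. Because CDKN2A and CDKN2B were chosen at 0 in MOLM13, profiles close to theirs were bound to be low there, so this is a description. PROSER1 was at 65.9 ± 0.538 CPM in MV411 DMSO and 59.9 ± 2.19 CPM in MV411 SGI-7079 (SD, n = 3), against 86.6 and 64.5 CPM for CDKN2A.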

How the data were processed

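RNA of 12 libraries of the cell lines MOLM13 and MV411 was selected on oligo(dT), made into strand-marked libraries and sequenced in pairs, per the labels' protocols. The submitters' processing notes name hg38 and, among the tools, edgeR, DESeq2, StringTie 2.1.6, HISAT2 2.2.1 and cutadapt 1.9. The series' design text names featureCounts for counting. Per the file headers, the authors deposited unscaled counts and FPKM for each gene and library. The sources used here do not give the strand setting or the handling of reads with several matches. No value column lacked a sample. No replicate pair agreed within sampling noise (chi-square over its degrees of freedom, 9.31 to 13.74).

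Counts were tested with edgeR 4.0.16 in R 4.3.3 (quasi-likelihood, TMM, filterByExpr with a minimum count of 10, 1 mean per group over 12 libraries), and p-values were adjusted by Benjamini-Hochberg over 21438 genes. The SE was derived from the fold change and the F statistic (absolute log2 value over the root of F). The FPKM served for order per length and in an alternative test with limma 3.58.1, and DESeq2 1.42.0 was a further alternative. A member with 3 counts or fewer in every library of a line got no fold there, and floors of 3 counts cover counting error only. The procedure was run on counts simulated from the MOLM13 libraries alone, with the same spread set for every gene. That run did not cover the joint fit of both lines or the difference between them. Members and lists were chosen with earlier results of these data known. Named were the 6 members, neighbours within 10 Mb at 1 CPM or more, in each list and line the 2 genes of smallest adjusted p per direction, and the 5 genes closest in profile to each of the 2 members of widest range. A list gene named in 1 line only may thus have moved in the other line as well. Gene positions are those of the deposited table, exons come from GENCODE 44 and promoters from RefSeq.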

Additional observations from a re-analysis of the deposited data

Results flagged for a closer look

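The response of FOCAD to SGI-7079 differed between the lines by the test of the difference itself, at -0.64 on the log2 scale (MV411 minus MOLM13; SE 0.09, edgeR adjusted p = 0.000155). FOCAD was lower in all 3 treated than in all 3 DMSO libraries of each line, with -0.32 in MOLM13 and -0.96 in MV411. Leaving out each library in turn gave a difference of -0.78 to -0.58.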

How the results depend on the processing

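No member that passed a test lost its call or changed direction under the alternatives run. Among differences between the lines that did not pass, HACD4 went from 0.16 to between -0.03 and 0.21 and KLHL9 from 0.06 to between -0.04 and 0.08, so these have no settled sign. The adjusted p of the FOCAD difference was between 1.7e-09 and 0.000621. KLHL9 in MOLM13 passed when the line was fitted alone (-0.17, adjusted p = 0.0467). CDKN2B in MV411 passed when the line was fitted alone (0.59, adjusted p = 0.0493), with limma on log2(FPKM + 0.1) (0.66, adjusted p = 0.00316) and with limma on log2(FPKM + 1) (0.25, adjusted p = 0.00041), which made 2 members that rose in MV411 instead of 1 in each of these 3 settings. With limma on log2(FPKM + 1) the genes called were 513 in MOLM13 (2655 in the reported test), 1125 in MV411 (3671) and 210 for the difference (772), and that larger added value shrinks the changes of low genes by construction. The DMSO log2 ratio of FOCAD between the lines was 0.52 by FPKM and 0.44 by CPM. The CPM carry TMM factors, 0.9327 to 0.9447 in MOLM13 DMSO and 0.9843 to 1.004 in MV411 DMSO. The FPKM are scaled to the library total without them. Such factors act on every gene of a library alike, so this offset is not particular to FOCAD. Leaving out each library in turn gave -0.40 to -0.23 for the MTAP difference and 1 to 2 members that differed. The median log2 fold change of all genes in MV411 was 0.114, and 0.031 to 0.168 under the alternatives. It was 0.031 to 0.046 without any 1 of the MOLM13 libraries, MV411 DMSO replicates 1 and 2 or MV411 SGI-7079 replicate 1. Without any 1 of the remaining libraries it was 0.104 to 0.111. MV411 fold changes thus sat lower as a whole in the former fits, and MV411 list counts near the threshold can move with them. Of 640 list counts under alternatives, 594 were within 1.5 times the reported count and 46 were not, and of 320 list medians 113 moved by more than the replicate spread and 0 changed sign. Replicates with the same number did not deviate together (correlations of 0 to 0.04), so the numbers give no pairing; with a replicate block the genes called were 2538 in MOLM13, 3530 in MV411 and 693 for the difference, and no member's call changed. With 80 to 174 counts per MV411 library, CDKN2B is the member whose precision depth limits most.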
